A study of Pyrus pyrifolia with 12 samples.

Results

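RNA sequencing was used to compare the fruit skin of Akibae and Nijisseiki, varieties of Asian pear (Pyrus pyrifolia), over all genes of the deposited count table. The comparison used 6 of the 12 libraries of the series, chosen by their variety label, with 3 Akibae and 3 Nijisseiki libraries. Akibae fruit was picked at 120 days after full bloom and Nijisseiki fruit at 135 days, both mature and untreated and both from orchards in Yizheng, Jiangsu. Variety and day of harvest changed together, so that their parts in a difference cannot be told apart. The study as a whole concerned the russet of pear skin in several varieties, and the skin type of Akibae and Nijisseiki was not given in the sources used here. The labels speak of biological replicates without saying whether these were fruits, trees or pools, so p-values measure the spread between these libraries. The other 6 libraries, from the varieties SuCui NO.1 and CuiYu (both 105 days after full bloom), entered the filter on low counts, the scaling and the estimate of the spread. Some genes were therefore tested through their reads in those varieties (26307 genes tested, against 24115 with the 6 libraries alone). The other varieties are also quoted where they show whether a gene could be detected at all.

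The outer skin of a smooth fruit is an epidermis covered by a cuticle, which is a polyester of hydroxylated fatty acids, cutin, coated and filled with waxes made from very-long-chain fatty acids. Fatty acids are elongated and turned into alkanes, alcohols and esters for wax, or hydroxylated at the end of the chain and joined through glycerol for cutin, and both products are exported by transporters and lipid transfer proteins. In russet skin the cuticle cracks and a cork layer with suberin, a polyester related to cutin but laid down inside the cell wall together with lignin-like phenolics, takes over the role of a barrier.

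The libraries held 11981445 to 13551896 counts. Nijisseiki replicate 1 stood apart. Over the 26307 genes tested, its rank correlation (Spearman's rho, across genes, which are not independent replicates) was 0.891 and 0.902 with the other Nijisseiki libraries, which correlated at 0.965 with each other. Akibae libraries correlated at 0.948 to 0.972 with each other and at 0.920 to 0.930 with Nijisseiki replicates 2 and 3, so by this measure those 2 libraries were nearer to Akibae than to the first replicate of their own variety. Counts of the gene lists and calls of named genes that changed without Nijisseiki replicate 1 are given both ways below.

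By edgeR's quasi-likelihood test with Benjamini-Hochberg adjustment (threshold 0.05), 665 genes differed, which is 2.53% of the 26307 tested. Of these, 253 (0.962% of those tested) were higher and 412 (1.57%) lower in Akibae. The median size of the log2 fold change among the 665 genes was 3.10, so that the genes past the threshold were mostly far apart between the varieties, while the median over all genes tested was -0.03. In 252 of the higher and 403 of the lower genes the 3 Akibae libraries did not overlap the 3 Nijisseiki libraries. Over all genes tested, all Akibae libraries lay above in 9.07% and below in 9.76%. Without Nijisseiki replicate 1, 390 genes were higher (1.48%) and 530 lower (2.01%), 920 in all (3.5%). Counts of gene lists and families without that replicate are to be read beside these shares. Of the 665 genes, 529 (79.5%) passed in the fit without Nijisseiki replicate 1 too, and all 665 kept their direction. The genes whose groups did not overlap could hardly change direction when a library was left out, so the kept direction adds little. When each of the 6 libraries was left out in turn, 249 genes (83 higher, 166 lower) passed every time. Fitted to the 6 libraries alone, the test called 82 genes higher (0.34% of 24115 tested) and 131 lower (0.543%), 213 in all (0.883%). Results of the 6-library fit are given for called members of the gene lists and for genes named by the size of the fold. They are not given for the other genes described below. Outside the wax list, the 6-library fit did not call HOTHEAD (gene25700, adjusted p = 0.0648), gene20409 (0.177), gene25795 (0.172), gene6507 (0.0534), gene6629 (0.0702), gene25850 (0.0709), gene10378 (0.0529), gene6333 (0.0555), gene11341 (0.104), gene24846 (0.0707), gene24976 (0.11), gene24375 (0.193), gene17755 (0.163), gene2213 (0.103) or gene17867 (0.0966), and it did not test gene27291, gene2983, gene15739, gene33758, gene187 or gene21652. DESeq2 called 722 genes higher (2.74%) and 928 lower (3.53%), 1650 in all (6.27%). At an unadjusted p under 0.05 by edgeR, 1719 of the 26307 genes tested were higher and 2044 lower. The unadjusted counts of the gene lists below are to be read beside these.

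**Figure D1:**
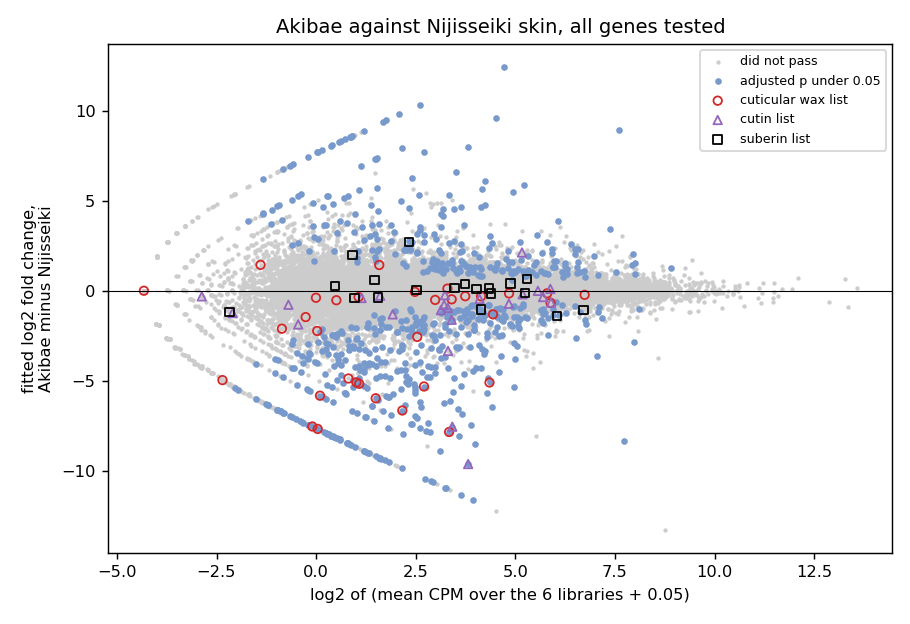
Fitted log2 fold change, Akibae minus Nijisseiki, against log2 of the mean CPM over the 6 libraries plus 0.05, one point per gene tested (26307). Blue points passed an adjusted p of 0.05, and open symbols are the tested members of the wax (33), cutin (23) and suberin (19) lists. The wax members reach far below 0, whereas the suberin members lie on both sides of it.

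Genes of cuticular wax made up the list with the most members past the threshold. Of 52 members in the table, 38 had reads and 33 could be tested. Of these, 9 were lower in Akibae (27.3%, beside 1.57% of all genes tested) and 0 were higher by edgeR, with 24 not passing; at an unadjusted p under 0.05 the counts were 15 and 0. The median log2 fold change of the tested members was -1.32 (-1.39 with members at 0 reads set to the floor of 3 reads), beside -0.03 over all genes tested. Without Nijisseiki replicate 1, 9 members were lower and the median was -0.97. The count was 3 without Akibae replicate 1 or without Akibae replicate 2, 14 with DESeq2 (beside 3.53% of all genes) and 0 in the fit to the 6 libraries alone, where the median was -0.59. DESeq2 called 0 members higher.

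The called wax genes covered elongation, alkane formation and export. 3-ketoacyl-CoA synthase 6 (gene8119, chromosome 13, 1079692 to 1081349; coordinates here and below follow the authors' table, with a build not given in the sources used here) is in Arabidopsis the main elongase for wax. Its level in CPM, which is the read count scaled to library size, was 0 reads, 0 reads and 0.225 in Akibae replicates 1, 2 and 3, against 50.7, 6.29 and 3.15 in Nijisseiki. Every Nijisseiki library was above every Akibae library, and Nijisseiki replicate 1 was far above the other 2. The ratio of Nijisseiki to Akibae was 233.6 over 3 Akibae reads (exact 95% counting interval 79.6 to 1136, which covers counting error only), and 60.8 without Nijisseiki replicate 1. The adjusted p was 0.00984, and 0.000947 without Nijisseiki replicate 1. The call was lost without Akibae replicate 1 (0.0581) or 2 (0.0568).

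Both genes named 3-ketoacyl-CoA synthase 10, the FIDDLEHEAD elongase that in Arabidopsis acts in the epidermis, were lower in Akibae. Gene10410 (chromosome 8, 16055882 to 16058933) stood at 0.231, 0.160 and 3.001 CPM in Akibae and at 83.2, 24.4 and 11.1 CPM in Nijisseiki. Akibae replicate 3 was the highest of its group and still below the lowest Nijisseiki library. The log2 fold change was -5.10 ± 1.001 (SE, n = 3 per group, adjusted p = 0.0241), and -3.96 without Nijisseiki replicate 1 (0.029). Without Akibae replicate 1 or 2 the adjusted p was 0.101 or 0.0907. Gene1422 on chromosome 15 had 0.0757 ± 0.0750 CPM in Akibae against 8.79 ± 10.7 in Nijisseiki (SD, n = 3 each). Its ratio was 103.3 (35.0 to 503.4), and 33.6 without Nijisseiki replicate 1, at an adjusted p of 0.0128 that rose to 0.0726 and 0.0665 without Akibae replicates 1 and 2.

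ECERIFERUM 1, the alkane-forming enzyme of wax synthesis, is the name of 10 genes in the table, 6 of which were tested and 3 of which were lower (beside 1.57% of all genes). Where copies are nearly identical, reads may be split between them, so the values of any 1 copy are uncertain. Gene30160 stood at 0 reads, 0 reads and 0.900 CPM in Akibae and at 26.01, 9.68 and 2.31 CPM in Nijisseiki. The groups did not overlap, and the log2 fold change was -5.32 ± 1.12 (adjusted p = 0.034, and 0.0465 without Nijisseiki replicate 1). This call was lost without Akibae replicate 1 (0.125), Akibae replicate 2 (0.119) or Nijisseiki replicate 2 (0.0576). Gene30157 stood at 0 reads, 0.0798 and 0.150 CPM in Akibae and at 10.5, 4.26 and 1.61 CPM in Nijisseiki (ratio 66.3, 22.4 to 324.3; adjusted p = 0.00642), and its call held in all 6 leave-one-out fits. Gene32251 was at 0.100 ± 0.173 against 3.83 ± 2.55 CPM (adjusted p = 0.0169; 0.0744 and 0.072 without Akibae replicates 1 and 2). Gene30160 and gene30157 lie on chromosome 7 between positions 5200989 and 5302310, with gene30158 between them and gene30156 beyond them. These neighbours had 0 reads in at least 2 Akibae libraries and Nijisseiki levels of 7.48, 2.02 and 0.420 CPM (gene30158, adjusted p = 0.0575) and 0.522, 0.145 and 0.210 CPM (gene30156, adjusted p = 0.073), and did not pass. The 6th tested copy, gene24825 on chromosome 2, had a positive fold change that did not pass (1.44 ± 0.84, adjusted p = 0.493).

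Of the remaining called members, both tested genes named ECERIFERUM 26-like, of a family that in Arabidopsis helps to make the longest wax chains, were lower. Gene26110 had 1 Akibae read and stood at 3.83, 1.45 and 0.770 CPM in Nijisseiki (ratio 73.5, 12.8 to 2942; adjusted p = 0.00486). Gene41961 stood at 0.100 ± 0.173 CPM against 4.03 ± 3.29 CPM (adjusted p = 0.0232; 0.093 and 0.0908 without Akibae replicates 1 and 2). Gene21123 is named for a GPI-anchored lipid transfer protein that in Arabidopsis takes part in the export of wax. It had 0 reads in the 3 Akibae libraries and 3.39, 1.16 and 0.770 CPM in Nijisseiki, which was at least 21.6-fold higher (12.4-fold without Nijisseiki replicate 1; adjusted p = 0.00809). A count of 0 does not separate a gene that is not expressed from one that is missing or too different in sequence for its reads to be placed.

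In all 9 called wax genes Nijisseiki replicate 1 was the highest of the Nijisseiki libraries. Among the 33 tested members this was so in 20, while over all genes tested it was so in 39.8%. The median level of the tested wax members was 0.539, 0.399 and 0.900 CPM in the Akibae libraries and 7.48, 4.19 and 1.61 CPM in Nijisseiki replicates 1, 2 and 3, so the groups did not overlap with or without Nijisseiki replicate 1. The summed level was 314.5, 300.3 and 308.7 CPM in Akibae and 666.1, 516.4 and 323.7 CPM in Nijisseiki. By that measure Nijisseiki replicate 3 was only slightly above the Akibae libraries. The deposited FPKM, which allow levels of different genes to be compared per length, placed the called wax genes of Nijisseiki between a mean of 1.51 (gene26110) and 20.1 (gene10410). The wax ester synthase gene41249 (O-acyltransferase WSD1), the 3-ketoacyl-CoA reductases and the enoyl-CoA reductase gene3565 did not pass. Gene41249 stood at 96.2, 94.2 and 104 CPM in Akibae and 75.5, 162 and 109 CPM in Nijisseiki, and its groups overlapped.

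The wax and epidermis lists touch, since ECERIFERUM 1 and 3-ketoacyl-CoA synthase 10 are also markers of epidermis. In such bulk samples fewer cells of a type and less RNA per cell cannot be told apart. Of 15 other epidermis markers, 6 were tested. The most abundant, GLABRA 2 (gene6029, a homeobox regulator of epidermal cells in Arabidopsis), stood at 23.3, 35.0 and 37.6 CPM in Akibae and 30.5, 41.8 and 26.6 CPM in Nijisseiki, with overlapping groups (log2 fold change -0.05 ± 0.25, adjusted p = 0.97). The summed level of the list was 27.0 to 42.8 CPM in Akibae and 30.3 to 49.6 CPM in Nijisseiki. PROTODERMAL FACTOR 2 (gene187), a homeobox regulator of epidermal identity in Arabidopsis, was the 1 marker past the threshold, at 0 reads in Akibae and 0.870, 0.650 and 0.280 CPM in Nijisseiki (adjusted p = 0.0121, and 0.0189 without Nijisseiki replicate 1).

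**Figure D2:**
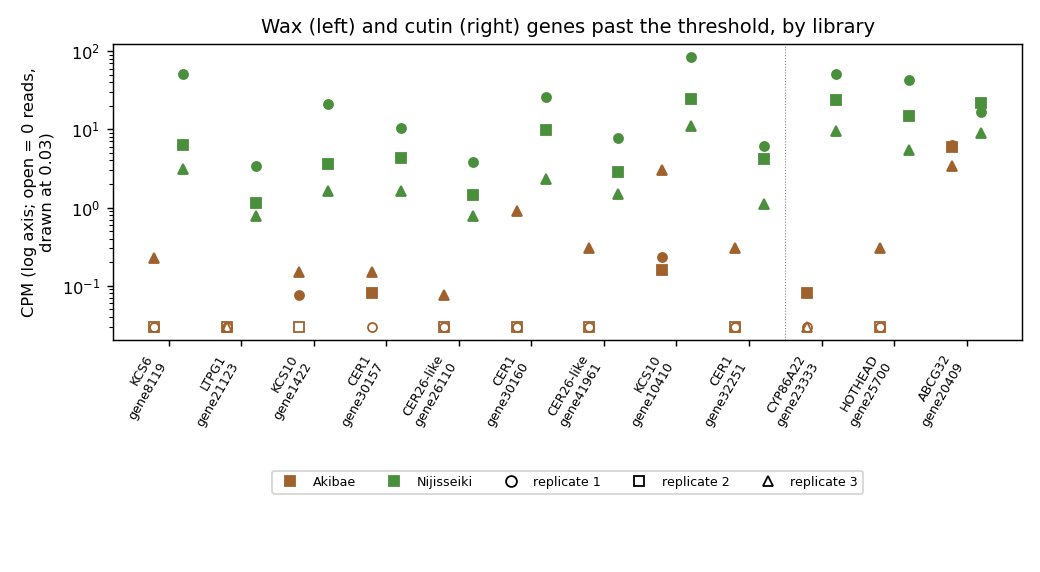
CPM on a log axis of the 9 wax and 3 cutin genes past the threshold, one symbol per library, with shapes for replicates. Open symbols drawn at 0.03 stand for 0 reads. In each gene the 3 Nijisseiki libraries lie above the 3 Akibae libraries, and in 11 of the 12 genes Nijisseiki replicate 1 is the highest.

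Of 38 cutin genes, 31 had reads and 23 were tested. By edgeR 3 were lower in Akibae (13.0%, beside 1.57% of all genes) and 0 higher. At an unadjusted p under 0.05 the counts were 6 and 1, and by DESeq2 3 and 1 (beside 3.53% and 2.74% of all genes). The median log2 fold change was -0.72. Without Nijisseiki replicate 1 the counts were 2 and 1, and the fit to the 6 libraries alone called 1 lower. Cytochrome P450 86A22 (gene23333, chromosome 6, 9002661 to 9005054), of a family that hydroxylates the end of fatty acids for cutin, had 1 read over the Akibae libraries and stood at 50.5, 24.0 and 9.66 CPM in Nijisseiki. This was the largest difference among the cutin genes (adjusted p = 0.00033), it passed in all 6 leave-one-out fits, and without Nijisseiki replicate 1 the ratio was 649. HOTHEAD (gene25700, chromosome 4), which in Arabidopsis oxidises the hydroxylated fatty acids further, stood at 0 reads, 0 reads and 0.300 CPM in Akibae against 43.3, 14.8 and 5.39 CPM in Nijisseiki. The groups did not overlap, and the log2 fold change was -7.56 ± 1.05 (adjusted p = 0.00362), or -6.51 without Nijisseiki replicate 1 (0.00184), with no call lost in a leave-one-out fit and an adjusted p of 0.0648 in the 6 libraries alone. The median level of the cutin list was 6.24, 5.59 and 3.83 CPM in Akibae and 16.2, 11.3 and 5.39 CPM in Nijisseiki, so the groups overlapped, and Nijisseiki replicate 3 had the lowest summed level (295.8 CPM, against 348.4 to 381.8 CPM in Akibae).

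ABC transporter G family member 32 (gene20409), which in Arabidopsis exports cutin precursors, differed less. It stood at 6.24, 5.90 and 3.38 CPM in Akibae and 16.7, 21.9 and 9.03 CPM in Nijisseiki, with no overlap. The log2 fold change was -1.62 ± 0.35 (adjusted p = 0.0386), and the call was lost without any 1 of the Akibae libraries or Nijisseiki replicates 1 and 2 (0.0597 to 0.12). The other tested gene of that name, gene22538, was more abundant and did not pass, at 82.2, 50.9 and 49.5 CPM in Akibae and 8.44, 130.3 and 31.4 CPM in Nijisseiki (log2 fold change 0.10 ± 1.09, adjusted p = 0.988), with overlapping groups. Another gene of the list leaned the other way. The BAHD acyltransferase DCR (gene18204), needed in Arabidopsis for cutin assembly, stood at 53.0, 39.6 and 82.4 CPM in Akibae and 25.7, 6.79 and 7.77 CPM in Nijisseiki. Every Akibae library was above every Nijisseiki library, the log2 fold change of 2.13 ± 0.67 did not pass with all libraries (adjusted p = 0.158), and it passed without Nijisseiki replicate 1 (0.0462). A 2nd gene of that name, gene10233, had its highest level in Nijisseiki replicate 1 (48.6 CPM) and 2.67 and 2.66 CPM in the other Nijisseiki libraries, against 3.93, 0.957 and 0.375 CPM in Akibae (adjusted p = 0.328).

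For suberin, 25 genes were listed, 23 had reads and 19 were tested. By edgeR 0 passed in either direction, while 2 had a positive and 2 a negative fold change at an unadjusted p under 0.05. DESeq2 called 1 lower (beside 3.53% of all genes). The median log2 fold change of 0.08 became -0.42 without Nijisseiki replicate 1. Nijisseiki replicate 1 was the lowest Nijisseiki library in 17 of the 19 (41.8% over all genes) and Nijisseiki replicate 2 the highest in 16 (31.4%). The suberin hydroxylase of the cytochrome P450 86A1 name (gene22741) shows this spread, with 21.1, 12.6 and 11.3 CPM in Akibae and 1.83, 25.1 and 7.56 CPM in Nijisseiki. The Akibae libraries lay inside the range of Nijisseiki, and the adjusted p was 0.937. Cytochrome P450 86B1 (gene6685), which makes very long suberin monomers in Arabidopsis, stood at 64.0, 48.4 and 89.9 CPM in Akibae and 69.5, 187 and 169 CPM in Nijisseiki. It passed as lower in Akibae without Nijisseiki replicate 1 (adjusted p = 0.0438) and not with it (0.218). The glycerol-3-phosphate acyltransferase gene3597 was at 13.9, 11.7 and 9.38 CPM against 1.74, 22.4 and 7.003 CPM (adjusted p = 0.976). The median level of the list was 13.8, 11.7 and 11.3 CPM in Akibae and 1.83, 25.1 and 7.56 CPM in Nijisseiki, so Nijisseiki enclosed Akibae, and its replicate 1, the highest in wax and cutin, was the lowest in suberin.

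**Figure D3:**
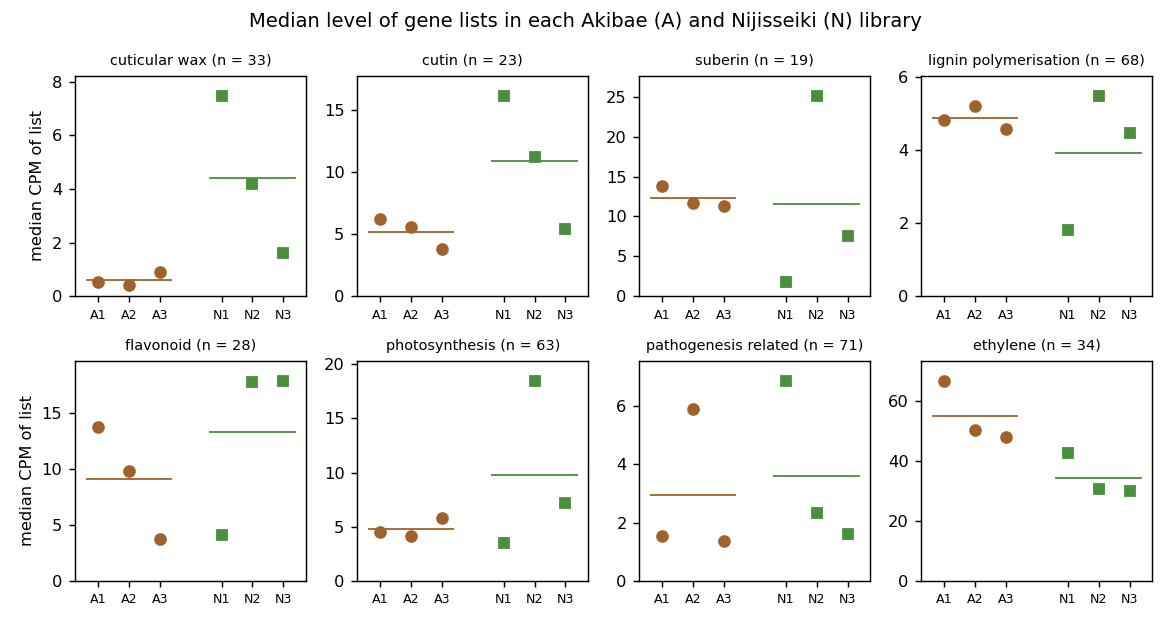
Median CPM over the tested members of 8 gene lists in each library, with the mean of the 3 libraries as a line (A, Akibae; N, Nijisseiki; linear axes from 0; n, tested members). Wax medians of Akibae lie below all of Nijisseiki and ethylene medians above, whereas cutin, suberin, lignin, flavonoid, photosynthesis and pathogenesis-related medians overlap, and Nijisseiki replicate 1 is the lowest library in the suberin and lignin panels and the highest in the wax and cutin panels.

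Lignin polymerisation comprised 242 laccases, peroxidases, dirigent and CASP proteins, of which 68 were tested, 1 was higher and 1 lower (beside 0.962% and 1.57% of all genes), with a median log2 fold change of 0.12. Leaving out Nijisseiki replicate 1 gave 1 higher and 3 lower and a median of -0.18. Of the 3 lower genes, the CASP-like gene24527 (adjusted p = 0.00115, and 0.142 with all libraries) and gene33214 (0.0434 and 0.174) passed without that replicate and not with it. CASP-like proteins belong to a family that marks the membrane where lignin is laid down. CASP-like protein 1F2 (gene25795) stood at 2.08, 2.31 and 1.88 CPM in Akibae and 0.435, 0 and 0.0700 CPM in Nijisseiki (log2 fold change 3.65 ± 0.80, adjusted p = 0.0391, and 0.00443 without Nijisseiki replicate 1). CASP-like protein 2A1 (gene15739) had 0 reads in Akibae and 5.83, 2.67 and 0.280 CPM in Nijisseiki, at least 35.3-fold higher (18.9-fold without Nijisseiki replicate 1, adjusted p = 0.0234). Neither pair of groups overlapped. The first call was lost without any 1 of the Akibae libraries or Nijisseiki replicates 2 and 3 (0.0701 to 0.132), and the second without any 1 of the Akibae libraries or Nijisseiki replicate 2 (0.0517 to 0.0756). Putative laccase-9 (gene7199), an oxidase that couples phenolics, stood at 19.7, 19.6 and 19.4 CPM in Akibae and 3.04, 4.77 and 1.96 CPM in Nijisseiki without passing (adjusted p = 0.0764).

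The phenylpropanoid route supplies lignin, suberin phenolics and flavonoids. Of its 13 tested entry genes 0 passed by edgeR (1 lower at an unadjusted p under 0.05, and 0 by DESeq2; median log2 fold change -0.60). Of the 56 tested genes that make lignin monomers 1 was lower (1.79%, near the 1.57% of all genes; median -0.39). This was shikimate O-hydroxycinnamoyltransferase (gene6507, chromosome 17), which makes the ester that is hydroxylated on the way to lignin. Its levels were 17.8, 15.8 and 16.3 CPM in Akibae and 57.6, 44.7 and 33.8 CPM in Nijisseiki. All Akibae libraries were lower, by a log2 fold change of -1.45 ± 0.24 (adjusted p = 0.0103, 0.0168 without Nijisseiki replicate 1, and 0.0566 without Akibae replicate 2).

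Of 52 flavonoid genes 28 were tested and 2 were lower (7.14%, beside 1.57% of all genes), with a median of -0.59. Leaving out Nijisseiki replicate 1 gave 1 lower and a median of -1.03. Dihydroflavonol 4-reductase gene6629, 1 of 2 tested genes with that name and a step toward tannins and anthocyanins, had 0 reads in Akibae and 0.957, 0.867 and 0.910 CPM in Nijisseiki, at least 11.8-fold higher (adjusted p = 0.00461). The other gene of that name, gene7584, was more abundant and leaned the other way without passing. It stood at 131.3, 115.1 and 131.8 CPM in Akibae and 58.45, 103.1 and 77.24 CPM in Nijisseiki, without overlap (log2 fold change 0.66 ± 0.30, adjusted p = 0.338). Flavonol synthase gene33758 stood at 0 reads, 0.160 and 0.150 CPM in Akibae and 8.26, 2.02 and 0.420 CPM in Nijisseiki, just under the threshold, and its call was lost without any 1 of the Akibae libraries or Nijisseiki replicates 1 and 2 (0.0736 to 0.183). The triterpene list, which covers the waxy acids of fruit skin, had 45 tested members and 1 lower (2.22%, near the 1.57% of all genes). Cycloartenol synthase gene21652, which closes the ring of plant sterols, had 0 reads in Akibae and 2.35, 0.217 and 1.05 CPM in Nijisseiki (adjusted p = 0.0351; lost without any 1 of the Akibae libraries or Nijisseiki replicate 3, 0.0727 to 0.102).

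The photosynthesis list had 77 members and 63 tested. By edgeR 1 was lower and 0 were higher (11 and 1 at an unadjusted p under 0.05, and 4 and 1 by DESeq2, beside 3.53% and 2.74% of all genes). The share of 1.59% lower was near the 1.57% of all genes, while 56 of the 63 had a fitted fold change below 0 and the median was -0.88, beside -0.03 over all genes. Nijisseiki replicate 2 was the highest Nijisseiki library in 55 of the 63, and the median was -0.16 without it and -1.14 without Nijisseiki replicate 1. Its members had a median of 4.47, 4.15 and 5.78 CPM in Akibae and 3.48, 18.5 and 7.21 CPM in Nijisseiki, so the groups overlapped. The gene past the threshold was chlorophyll a-b binding protein 6 (gene25850, chromosome 1), an antenna protein of photosystem I. It stood at 4.70, 4.07 and 4.50 CPM in Akibae and 24.1, 35.6 and 11.3 CPM in Nijisseiki, with no overlap, and its log2 fold change was -2.42 ± 0.35 (adjusted p = 0.00466, 0.00721 without Nijisseiki replicate 1, 0.0709 in the 6 libraries alone, and no call lost in a leave-one-out fit). A pair of further antenna genes passed only in the fit without Nijisseiki replicate 1, in which 3 members were lower. They were gene19797 (CP26, adjusted p = 0.0732 with all libraries and 0.0262 without that replicate) and gene18614 (P4, 0.111 and 0.0464). Of 28 tested genes of chlorophyll turnover 0 passed by edgeR or DESeq2, and 3 were lower at an unadjusted p under 0.05.

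A further set of genes was named for the size of the fold over all genes, and cytochrome P450 86A22 was also in it. Protein translation factor SUI1 homolog 2 (gene9597, chromosome 3, 4669948 to 4672606), an initiation factor that helps the ribosome to choose the start codon, stood at 46.5, 45.6 and 64.1 CPM in Akibae and had 0 reads in Nijisseiki. Akibae was at least 689.9-fold higher (489.7-fold without Nijisseiki replicate 1, adjusted p = 4.66e-05). CuiYu had 174 CPM of this gene and SuCui NO.1 0.130 CPM, and 1 of 3 tested genes of the name was higher. The lectin receptor kinase gene16320 (LECRK3), of a family of cell-surface receptors, stood at 45.5, 40.9 and 51.1 CPM in Akibae and had 2 reads over the Nijisseiki libraries (ratio 910.5, 251.7 to 7524, and 646.2 without Nijisseiki replicate 1; adjusted p = 1.38e-06).

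Cytochrome P450 71A4 (gene27907, chromosome 17, 5925202 to 5926938) stood out by level. It was at 303, 348 and 514 CPM in Akibae and at 1.65, 0.0723 and 0.700 CPM in Nijisseiki, a log2 fold change of 8.94 ± 0.87 (adjusted p = 0.00037, and 9.92 at 0.000369 without Nijisseiki replicate 1). SuCui NO.1 and CuiYu had 2.46 and 0.0734 CPM. Its mean deposited FPKM in Akibae was 259.4, against 0.535 in Nijisseiki.

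Further genes with 0 reads in Nijisseiki were named by the size of their fold. Gene26522 (TRI1) stood at 3.01, 3.51 and 4.35 CPM in Akibae (at least 48.0-fold, adjusted p = 0.00032). The nucleobase-ascorbate transporter gene10378, of a family of membrane carriers, was at 5.55, 8.94 and 21.6 CPM (at least 160.5-fold, adjusted p = 0.026; lost with DESeq2, 0.185, and without Akibae replicate 1 or 2 or Nijisseiki replicate 2 or 3, 0.0528 to 0.0908). The F-box gene36338 was at 4.86, 5.59 and 8.55 CPM (at least 83.99-fold, adjusted p = 0.0139; 0.0627 and 0.0676 without Akibae replicates 1 and 2). Glutathione S-transferase F12 (gene19743), whose Arabidopsis counterpart carries anthocyanins and tannin precursors to the vacuole, was at 4.70, 2.08 and 4.05 CPM (at least 48.0-fold, adjusted p = 0.0281). Its call held only in the leave-one-out fit without Nijisseiki replicate 1, with 0.0558 to 0.117 in the other 5. Neither SuCui NO.1 nor CuiYu had reads of gene10378, gene36338 or gene19743.

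MLP-like protein 328, of the major latex protein family, is the name of 10 genes, 7 of which were tested and 3 of which were higher (beside 0.962% of all genes). Gene32094 stood at 8.63, 3.67 and 7.73 CPM in Akibae and had 0 reads in Nijisseiki (at least 88.8-fold, adjusted p = 0.00249). Gene32091, also on chromosome 13, stood at 15.3, 7.10 and 8.78 CPM against 0, 0.145 and 0.210 CPM (adjusted p = 0.00219). Gene4363 on chromosome 16 ranged from 6.603 to 58.6 CPM in Akibae and from 0 to 1.52 CPM in Nijisseiki (adjusted p = 0.0348). All 3 passed without Nijisseiki replicate 1 too.

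Among the genes lower in Akibae, beta-glucosidase 11 (gene6607, chromosome 2), an enzyme that frees glucose from glycosides, had 0 reads in Akibae and 26.6, 27.8 and 19.8 CPM in Nijisseiki. Nijisseiki was at least 318.3-fold higher (307.5-fold without replicate 1, adjusted p = 0.00262), and SuCui NO.1 and CuiYu had 0 reads as well. ZINC INDUCED FACILITATOR-LIKE 1 (gene7227), a membrane carrier tied to auxin transport in Arabidopsis, had 0 reads in Akibae and 27.1, 11.2 and 18 CPM in Nijisseiki (at least 236.6-fold, adjusted p = 0.00211). The ribosomal RNA methyltransferase NEP1 (gene6697), which works on the small ribosomal subunit, had 0 reads in Akibae and 17.1, 11.5 and 16.6 CPM (at least 193.8-fold, adjusted p = 0.000981). These 3 calls held in all 6 leave-one-out fits.

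A pair of genes in this group were almost silent in Nijisseiki replicate 1. Glutamate dehydrogenase (gene27291), which links amino acid and carbon metabolism, had 0 reads in Akibae and 0.261, 25.1 and 18.3 CPM in Nijisseiki. The plastid ribosomal protein L31 (gene2983) had 0 reads in Akibae and 0.174, 17.99 and 21.7 CPM. Nijisseiki replicate 1 was thus near Akibae in both. Their adjusted p was 0.0294 and 0.0392 with all libraries, 5.75e-05 and 0.000559 without Nijisseiki replicate 1, and 0.0671 to 0.123 when any other library was left out. The folds were at least 199.7 and 183.3, or 279.9 and 257.3 without that replicate. Cysteine-rich receptor-like protein kinase 29 (gene40535) had 0 reads in Akibae and 7.39, 10.1 and 8.96 CPM in Nijisseiki (at least 115.3-fold, adjusted p = 0.000536), and 3 of 7 tested genes of its name were lower (beside 1.57% of all genes). The uncharacterised gene484 had 0 reads against 7.39, 7.51 and 4.55 CPM (at least 83.0-fold, adjusted p = 9.13e-05).

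Presence and absence of reads were not symmetric. In 19 genes Nijisseiki had 0 reads while every Akibae library had at least 1 CPM, and in 41 genes Akibae had 0 reads while every Nijisseiki library had at least 1 CPM. Of the 19, 18 were called, 5 had a mean of at least 1 CPM in SuCui NO.1 or CuiYu, and 10 had 0 reads in both. Of the 41, 40 were called, 29 had a mean of at least 1 CPM in SuCui NO.1 or CuiYu, and 6 had 0 reads in both. A count of 0 over 3 libraries allows a level of up to 0.0772 CPM in Akibae and 0.0757 CPM in Nijisseiki (3 reads, counting error only).

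Called genes were spread unevenly along the chromosomes. Their share was 4.14% of the tested genes on chromosome 10 and 3.93% on chromosome 2, but 0.771% on chromosome 11 and 0.764% on chromosome 12, beside 2.53% over all genes. Without Nijisseiki replicate 1 the share on chromosome 17 went from 2.56% to 5.93%, on chromosome 15 from 2.35% to 4.29% and on chromosome 11 to 2.44%, while chromosome 9 stayed at 1.37%. In steps of 1 Mb, 176 of 409 steps with a tested gene held no called gene, and 30 held at least 5. These 30 held 185 of the 567 called genes on numbered chromosomes and 2372 tested genes. Neighbouring genes share sequence and position, so no test was made.

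**Figure D4:**
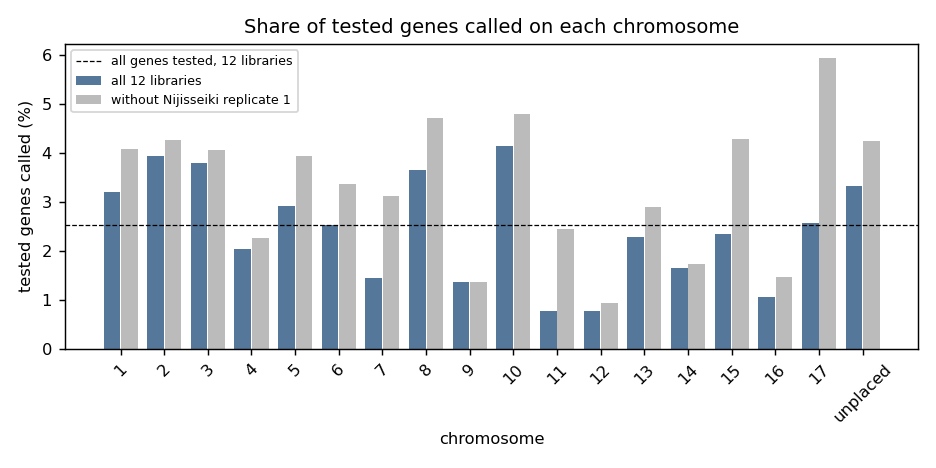
Percent of tested genes past the threshold on each of the 17 chromosomes and on unplaced scaffolds, with all 12 libraries and without Nijisseiki replicate 1; the dashed line is the share over all genes tested, 2.53%. Chromosomes 1, 2, 3, 5, 8 and 10 and the unplaced scaffolds lie clearly above it, 6 and 17 lie near it, and 9, 11, 12 and 16 are the lowest, and leaving out that replicate raises chromosomes 15 and 17 most.

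The most called genes in a step were 9, on chromosomes 2 and 5. The step on chromosome 2, chosen after the values were seen, and the one before it form a stretch from 19000001 to 21000000. In these 2 Mb 16 of 152 tested genes (10.5%) were called, 14 of them lower in Akibae. Beta-glucosidase 11, NEP1 and dihydroflavonol 4-reductase gene6629, given above, lie here. So do 5 genes named for intracellular receptors that detect pathogens. Of these, TMV resistance protein N gene6610 stood at 0.0771, 0.0798 and 0 CPM in Akibae and 14.1, 12.4 and 13.7 CPM in Nijisseiki (adjusted p = 0.000924). Gene6604 of the same name had 0 reads against 4.61, 8.31 and 4.76 CPM (adjusted p = 0.0163). RPS6 gene6608 stood at 0, 0.0798 and 0.0750 CPM against 5.39, 6.43 and 3.57 CPM (adjusted p = 0.00777). Gene6605, the third TMV resistance protein N, and gene6609 were lower too (adjusted p = 0.0165 and 0.0467, the latter 0.0643 without Nijisseiki replicate 1). In all 5 the groups were far apart and did not overlap. The span of gene6608 (20107336 to 20157095) encloses those of gene6610 and gene6609, so these may not be separate genes. Over the whole genome 188 genes named TMV resistance protein N were tested, of which 4 were higher and 9 lower (beside 0.962% and 1.57% of all genes). Gene6604, gene6605 and gene6610 of this stretch are among the 9. Without Nijisseiki replicate 1 the counts were 8 and 11 (beside 1.48% and 2.01%). Reads of such receptor genes may be split among the 261 genes that carry this name.

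Among the hormone lists, 1 of 34 tested ethylene genes was higher, beside 0.962% of all genes. This was CTR1 (gene6333, chromosome 10), the kinase that in Arabidopsis holds ethylene signalling back. It stood at 108, 92.2 and 111 CPM in Akibae and 58.6, 55.6 and 46.6 CPM in Nijisseiki, without overlap, at a log2 fold change of 0.96 ± 0.16 (adjusted p = 0.0111, 0.0145 without Nijisseiki replicate 1, 0.0526 without Akibae replicate 1 and 0.0516 without Nijisseiki replicate 3). The median level of the ethylene list was 67.0, 50.4 and 48.0 CPM in Akibae and 42.8, 30.7 and 30.1 CPM in Nijisseiki. Its summed level was 3810, 3228 and 3256 CPM in Akibae and 4038, 2656 and 2981 CPM in Nijisseiki. The groups overlapped by that measure, with Nijisseiki replicate 1 the highest library. Of 29 tested abscisic acid genes 0 passed by edgeR or DESeq2, with 5 higher and 2 lower at an unadjusted p under 0.05. The median log2 fold change was 0.13 for abscisic acid and 0.19 for ethylene.

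Transcription factors were counted by family. Of 75 tested MYB factors 1 was higher and 3 lower, of 64 NAC factors 1 was lower, of 85 ERF factors 1 was higher, and of 66 WRKY factors 0 passed by edgeR, beside 0.962% higher and 1.57% lower over all genes. In the fit without Nijisseiki replicate 1, 1 MYB factor was higher and 4 lower, and 2 NAC factors were higher and 1 lower. Over all genes that fit called 1.48% higher and 2.01% lower. DESeq2 called 3 MYB factors higher and 6 lower, 6 NAC factors higher and 1 lower, 4 ERF factors higher and 2 lower, and 3 WRKY factors lower. Over all genes DESeq2 called 2.74% higher and 3.53% lower. At an unadjusted p under 0.05, 8 NAC factors were higher and 3 lower, and 2 WRKY factors were higher and 6 lower. Over all 26307 genes tested, 1719 were higher and 2044 lower at that threshold. RAP2-2 (gene9415), an ethylene response factor of the group that acts under low oxygen in Arabidopsis, was among the most abundant of these. It stood at 665, 644 and 729 CPM in Akibae and 341, 248 and 244 CPM in Nijisseiki, a log2 fold change of 1.29 ± 0.25 (adjusted p = 0.0212, 0.0157 without Nijisseiki replicate 1, and 0.0628 to 0.0894 when any other library was left out). MYB1R1 (gene13235) had 0 reads in Akibae and 3.74, 8.38 and 6.23 CPM in Nijisseiki (at least 81.0-fold, adjusted p = 0.00047), and NAC78 (gene37559) stood at 0.462, 0.479 and 0.225 against 4.96, 6.50 and 6.93 CPM (-3.95 ± 0.40, adjusted p = 0.000455). Both calls held in all leave-one-out fits.

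A pair of called MYB genes bear names of barrier regulators, and the other tested copies of both names did not pass. MYB36 is the name of 9 genes, of which 4 were tested and 1 was higher (beside 0.962% of all genes). MYB39 is the name of 17 genes, of which 7 were tested and 1 was lower (beside 1.57%). MYB36 (gene24976), which directs the Casparian strip in Arabidopsis roots, stood at 20.3, 18.8 and 16.8 CPM in Akibae and 8.002, 11.2 and 9.52 CPM in Nijisseiki (0.96 ± 0.22, adjusted p = 0.0467). MYB39 (gene24375), a suberin regulator of Arabidopsis roots, stood at 0.308, 0.239 and 0.600 CPM against 2.52, 1.52 and 1.12 CPM (-2.13 ± 0.46, adjusted p = 0.0387). Groups did not overlap in either gene. The MYB36 call was lost whichever library was left out (0.0729 to 0.178), and that of MYB39 without Akibae replicate 1 or 2 or Nijisseiki replicate 1 or 2 (0.0698 to 0.163). The Myb-related gene17755 was lower by 1.12 ± 0.24 on the log2 scale (adjusted p = 0.0387) and also lost its call whichever library was left out (0.0507 to 0.16).

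Of 121 tested genes of cell wall loosening, 3 were higher and 1 lower (beside 0.962% and 1.57% of all genes), with a median log2 fold change of 0.26, or 0.13 without Nijisseiki replicate 1. Endoglucanase 1 (gene11341), which cuts glucan chains, stood at 5.32, 39.7 and 18.1 CPM in Akibae and 1.22, 1.30 and 0.210 CPM in Nijisseiki (log2 fold change 4.53 ± 0.82, adjusted p = 0.0161, and 0.0647 without Akibae replicate 2). Xyloglucan endotransglucosylases, which cut and rejoin wall polymers, went both ways. Gene9015 was at 6.40, 14.0 and 10.7 CPM in Akibae against 0.696, 1.73 and 0.980 CPM (3.17 ± 0.43, adjusted p = 0.0032). Gene33560 had 3 Akibae reads against 3.91, 40.8 and 26.6 CPM in Nijisseiki (ratio 323.5, 110.4 to 1571, adjusted p = 0.00622). Beta-galactosidase 16 (gene24846), which trims side chains of wall sugars, stood at 1.16, 1.76 and 2.03 against 0.261, 0.0723 and 0.0700 CPM (adjusted p = 0.0143, and 0.0611 and 0.0636 without Nijisseiki replicates 2 and 3). Of 25 tested genes of secondary wall synthesis 0 passed by edgeR or DESeq2, and 1 was lower at an unadjusted p under 0.05.

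In the sugar list, 1 of 84 tested genes was higher and 1 lower, near the 0.962% and 1.57% of all genes, with a median log2 fold change of -0.22, or 0.01 without Nijisseiki replicate 1. Alkaline/neutral invertase E (gene14520), which splits sucrose in plastids, stood at 6.94, 6.06 and 7.95 CPM in Akibae and 0.870, 0.867 and 0.420 CPM in Nijisseiki (3.27 ± 0.32, adjusted p = 0.00037). Polyol transporter 5 (gene36166), whose Arabidopsis counterpart carries sorbitol among other polyols, stood at 0.0771, 0.0798 and 0.150 against 6.26, 8.45 and 5.81 CPM (-5.93 ± 0.86, adjusted p = 0.00466). Both groups were far apart, both calls held in all leave-one-out fits, and 1 of 11 tested genes named polyol transporter 5 was called.

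Of 96 tested cell division genes, 3 were higher and 1 lower (beside 0.962% and 1.57% of all genes), and 2 were higher and 2 lower without Nijisseiki replicate 1 (beside 1.48% and 2.01%). Histone H2A.2 (gene37871) stood at 3.62, 3.35 and 5.10 CPM in Akibae and 0, 0.145 and 0.0700 CPM in Nijisseiki (ratio 53.4, 17.9 to 261.7, adjusted p = 0.000713), and histone H3.2 (gene22928) at 3.62, 2.23 and 3.15 against 22.4, 32.9 and 46.5 CPM (-3.49 ± 0.53, adjusted p = 0.00578). Each is 1 gene of several with the same name, which share sequence. Histone H3.3 (gene2213) and cyclin-B1-2 (gene17867), which drives entry into mitosis, were higher by log2 fold changes of 1.09 ± 0.24 and 1.08 ± 0.23 (adjusted p = 0.0416 and 0.0367). Both lost their calls whichever library was left out (0.0615 to 0.17 and 0.0685 to 0.157).

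Defence and stress lists showed 0 calls by edgeR, among 71 tested pathogenesis-related and 85 tested heat shock genes. At an unadjusted p under 0.05, 3 pathogenesis-related genes were higher and 6 lower, and 3 heat shock genes higher and 2 lower (beside 1719 higher and 2044 lower of all 26307 genes tested). DESeq2 called 1 pathogenesis-related gene lower, and 1 heat shock gene in each direction (beside 2.74% higher and 3.53% lower over all genes). The median fold change of the pathogenesis-related list was -0.39 with all libraries and 0.39 without Nijisseiki replicate 1, where 1 member was higher. In the same fit 1 heat shock gene was lower. The median level of the pathogenesis-related list was 6.87 CPM in Nijisseiki replicate 1, 2.31 and 1.61 CPM in the other Nijisseiki libraries, and 1.54, 5.90 and 1.35 CPM in Akibae.

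Markers of other cell types were low in most libraries. SIEVE ELEMENT OCCLUSION B (gene37837), a phloem protein, stood at 4.01, 5.82 and 37.1 CPM in Akibae and 1.22, 0.0723 and 0.350 CPM in Nijisseiki, and did not pass (adjusted p = 0.0831). The summed level of the 2 tested phloem markers of 5 was 5.24 to 39.5 CPM in Akibae and 0.0723 to 1.39 CPM in Nijisseiki. NAC domain-containing protein 30, a regulator of xylem vessels and the 1 xylem marker of 12 that was tested, stood at 8.71, 4.55 and 0.150 CPM against 0.696, 0.578 and 0.910 CPM (adjusted p = 0.213). The 4 tested seed markers of 27 summed to 21.7 to 60.8 CPM against 31.7 to 41.0 CPM, and the 3 pollen and anther markers had no reads. The part of these cell types in the differences was not tested.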

How the data were processed

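Skin RNA was isolated by a CTAB method and sequenced from NEB Next Ultra libraries, per the labels' protocols. The authors deposited 1 table with raw read counts and FPKM per library, per the file headers; aligner, counter, strand setting and genome build were not given in the sources used here. The deposited FPKM equal counts divided by gene length and 1 constant per library, and were not tested. Of 43732 genes, 30296 (69.3%) carry a Swiss-Prot name, the nearest known protein. No pair of libraries held identical counts.

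The counts went into edgeR 4.0.16 (R 4.3.3): filterByExpr by variety (26307 genes tested, 17425 not), TMM scaling, 1 mean per variety fitted with glmQLFit to all 12 libraries (common biological coefficient of variation 0.413), the contrast Akibae minus Nijisseiki by glmQLFTest, and Benjamini-Hochberg adjustment over all genes tested. Fitting all 12 libraries lets the varieties share 1 estimate of spread. The SE is the size of the fold change over the root of its F statistic. CPM use TMM-scaled sizes. Folds against 0 reads are bounds from a floor of 3 reads over the group's 3 libraries. DESeq2 1.42.0, other scalings and filters, the 6 libraries alone, a block and each library left out were the 13 alternatives. Those that leave out a library or change the scaling keep the genes tested.

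Named genes (33) were those with a Swiss-Prot name and at least 1 CPM on average in the 6 libraries that had, in each direction, the 8 largest folds among called genes whose groups did not overlap, and in each of 22 gene lists the called member with the largest fold in each direction. All called list members were added. The members, lists and tests were chosen with earlier results of these data known. Lists were matched on Swiss-Prot names and are described by counts and medians, without a test. In data simulated for this comparison over 26307 genes, 92 of 100 genes changed 8-fold and 7 of 100 changed 2-fold were recovered, with 2 false calls, so a gene that missed the threshold may still differ. The changed genes were drawn from the more abundant genes, and no library was made to stand apart. These shares therefore do not describe genes at low levels. Outlier checks were not made in groups of 3.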

Additional observations from a re-analysis of the deposited data

How the results depend on the processing

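Counts of genes higher and lower in Akibae (253 and 412) were 250 and 407 with DESeq2's size factors in edgeR, 250 and 422 with unscaled totals, 219 and 366 without the filter and 227 and 360 with a minimum mean of 1 CPM. They moved by more than 1.5 times with DESeq2's test (722 and 928) and with the 6 libraries alone (82 and 131). The fit to the 6 libraries has its own filter and takes the spread from these libraries only. Why its counts were lower was not tested. Leaving out 1 library gave 99 to 390 genes higher and 193 to 530 lower; the highest counts came without Nijisseiki replicate 1 and the lowest without Akibae replicate 1 or 2 (99 and 196, and 117 and 193). Same-numbered libraries did not deviate together (r of -0.05 to 0.02 across genes). This shows no sign of pairing by number but, with 3 libraries per variety, cannot exclude it. A replicate block gave 185 and 294. Of the 33 named genes, 32 passed under each other scaling, each filter and DESeq2, 31 without Nijisseiki replicate 1, 24 with the block, 20 to 25 without another library, and 21 of 29 testable in the 6 libraries alone, with 0 reversed. A gene whose groups do not overlap can hardly be reversed by these changes, so this says little. No list median changed sign under the scalings; those of the wax and cutin lists kept their sign under every alternative (-1.41 to -0.59 and -0.91 to -0.56), and that of the suberin list ranged from -0.42 to 1.23. Depth limits most the genes near the floor of 3 reads.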

Other observations

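Some families outside the lists, chosen after their values were seen, are given as values. Of 49 tested genes with a GDSL lipase domain, a family that includes the enzyme that joins cutin in tomato, 7 were lower in Akibae and 1 higher by edgeR (beside 1.57% and 0.962% of all genes tested), and the median log2 fold change was -0.66. Without Nijisseiki replicate 1, 7 were lower and 0 higher (beside 2.01% and 1.48% of all genes tested). Gene30669 (APG) stood at 0.462, 0.479 and 1.20 CPM in Akibae and 25.7, 11.3 and 4.48 CPM in Nijisseiki (log2 fold change -4.25 ± 0.61, adjusted p = 0.00446). Gene15262 (At2g04570) stood at 0 reads, 0 reads and 0.150 CPM against 23.3, 5.64 and 1.68 CPM (adjusted p = 0.00984). In both genes Nijisseiki replicate 1 was the highest library, as in the wax genes.

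Of 12 tested genes named UDP-glycosyltransferase 87A1, of a family that attaches sugars to small molecules, 4 were lower (beside 1.57% of all genes tested). Gene702, gene703 and gene704 carry neighbouring numbers on chromosome 3. The span of gene704 (25474495 to 25476957) lies inside that of gene703 (25470676 to 25477370), so gene703 and gene704 may not be separate genes. Gene702 stood at 1.54, 1.76 and 1.80 CPM in Akibae and 6.96, 49.6 and 44.2 CPM in Nijisseiki (adjusted p = 0.00367, and 5.01e-06 without Nijisseiki replicate 1). Gene33777 on chromosome 1 stood at 0.154, 0.0798 and 0 CPM against 0, 15.2 and 19.3 CPM (adjusted p = 0.037, and 2.33e-05 without Nijisseiki replicate 1), so that Nijisseiki replicate 1 was at the level of Akibae.

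Of 29 tested genes named rust resistance kinase Lr10, a receptor-like kinase first known from wheat, 6 were lower and 0 higher (beside 1.57% and 0.962% of all genes tested). Without Nijisseiki replicate 1, 8 were lower (beside 2.01% of all genes tested). The most abundant of the 6, gene7966, stood at 0.0771, 0.399 and 0.150 CPM in Akibae and 14.6, 10.04 and 8.19 CPM in Nijisseiki (adjusted p = 0.000235). Of 355 tested genes with an NB-ARC domain, the switch of intracellular receptors, 10 were higher and 12 lower (2.82% and 3.38%, beside 0.962% and 1.57% of all genes tested). Without Nijisseiki replicate 1 the counts were 17 and 17, while the shares over all genes rose to 1.48% and 2.01%. Genes named for the disease resistance protein At5g66900 were higher in 4 cases and lower in 1 of 21 tested, and without Nijisseiki replicate 1 in 3 cases and 1. Gene1698 stood at 609.8, 355.1 and 239.2 CPM in Akibae and 118.4, 95.8 and 73.3 CPM in Nijisseiki (log2 fold change 2.07 ± 0.35, adjusted p = 0.0103), while gene41915 stood at 0.385, 0.0798 and 0.300 CPM against 20, 1.95 and 5.39 CPM (adjusted p = 0.0214). Reads of such copies may be split among them.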
